A study of Mus musculus with 20 samples.

Results

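The 9 arrays of mouse embryonic stem cells (ESC) were grouped by the number that ends each sample's title, which gave 3 sets of 3 arrays out of the 20 arrays of the series. Each set held 1 array labelled wild type (wt), 1 labelled heterozygous (het) and 1 labelled homozygous (hom) for a targeted Mysm1 allele, tm1a(KOMP)WTSI, so genotype was balanced over the sets. Mysm1 encodes a deubiquitinase of histone H2A. The ESC were on a C57BL/6 background, were described as independently passaged, and received no treatment named in the labels. The other 11 arrays were of embryonic fibroblasts (MEF), of which the 4 wild-type arrays serve below as a yardstick for fibroblast transcripts. The labels do not say that a shared number marks a shared passage or day, and how many cell lines were used is not stated, so p-values here rest on the spread between these samples, which may be technical.

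ESC come from the inner cell mass of the blastocyst and are kept in an undifferentiated state by LIF, which acts through the kinase Jak1 and Stat3, and by BMP signals, while FGF and ERK signals move them towards a primed, epiblast-like state. ESC of this kind are often grown on a layer of fibroblasts, called feeder cells, which make collagens and other matrix proteins, and cultures also hold cells that are leaving the undifferentiated state. Keratins 8 and 18 form the simple epithelial filaments that appear early in the trophectoderm, the outer layer of the blastocyst, and in other epithelia. The growth conditions of these samples are not given in the sources used here.

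Libraries were alike in quality across sets. The median raw signal was 54.05 to 59.78, the percentage of probes detected 29.3 to 31.5 and the mean bead number of a probe 45.1 to 45.5. With 3 arrays a set, their number sets the precision. The ESC label held in every set: 10 of 10 ESC markers were detected on all arrays of each set, with a summed level of 14.99 to 15.34 on the log2 scale. In each triple of values below the order is wt, het and hom as labelled.

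The level of Mysm1 went against the labels in set 1. Its log2 intensity was 7.69, 4.45 and 6.47 in set 1, 7.48, 6.68 and 5.42 in set 2, and 7.64, 6.67 and 4.81 in set 3. The library labelled het 1 was thus the lowest of all and not above background, and the library labelled hom 1 lay near the het arrays of the other sets. The Y-linked gene Eif2s3y was detected on het 2, het 3 and the library labelled hom 1, at 5.41, 5.70 and 5.45, and on none of the other 6 arrays. A set mean holds the same 3 arrays whichever of these labels each bears. Standard errors, calls and variance shares below do depend on the labels, and use the genotypes as labelled. A fit with these 2 labels exchanged was not run. Without these 2 libraries, 417 probes passed between set 3 and set 1, against 576 with all arrays, 1253 between set 2 and set 1, against 2231, and 3248 between set 3 and set 2, against 2433.

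Arrays with the same number resembled each other across genotypes. Of the variance over 14502 probes detected on at least 3 arrays, the set number accounted for 55.2%, the labelled genotype for 22.8% and the remainder for 21.95%. The set number held 71.6% of what genotype left, where its share of the degrees of freedom was 33.3%. After removal of genotype means, 53.1% of the variance lay on the first principal component, which placed the set 2 arrays at 26.4, 35.5 and 28.1, with the other 6 between −23.55 and −10.8. The second held 19.99% and parted set 1, at −15.3, −20.5 and −14.96, from set 3, at 14.0, 17.45 and 13.8. Set 2 therefore stood apart most, and sets 1 and 3 differed on a smaller axis.

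**Figure D1:**
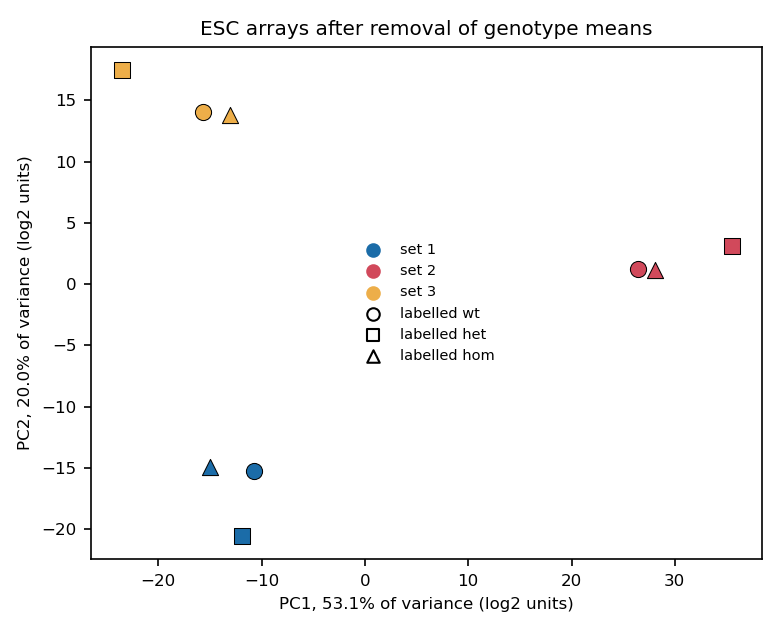
Principal components of the 9 ESC arrays after removal of genotype means, in log2 units, with colour for the set and shape for the labelled genotype. The set 2 arrays lie at 26.4 to 35.5 on the first component, and the second component separates set 1 from set 3.

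On the model of set with genotype as a block (limma, 4 residual degrees of freedom, Benjamini-Hochberg adjusted p under 0.05), 576 of 14502 probes differed between set 3 and set 1, which is 3.97%. Of these 355 (2.45%) were higher and 221 (1.52%) lower in set 3, and 74 differed by at least 1 on the log2 scale. Between set 2 and set 1 the count was 2231 (15.4%), 1132 (7.81%) higher and 1099 (7.58%) lower in set 2, with 435 of at least 1. Between set 3 and set 2 it was 2433 (16.8%), 1254 (8.65%) higher and 1179 (8.13%) lower in set 3, with 474 of at least 1. Over 8694 genes, each read by its brightest probe, the shares were 4.68%, 17.9% and 19.2%. The 3 comparisons share arrays and are not independent of each other. A difference among any of the sets passed for 2936 probes (20.2%). Leaving out 1 array moved the first count most: to 142 without het 3, 290 without wt 3, 305 without the library labelled het 1, 337 without hom 2 and 382 without the library labelled hom 1. The second fell to 887 without het 2, 1201 without hom 2, 1313 without wt 2 and 1429 without the library labelled hom 1. The third fell to 997 without het 2, 1150 without het 3, 1388 without hom 2 and 1607 without wt 2.

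Each labelled genotype gave its own value of a set difference, from arrays that no other labelled genotype shares. In both comparisons with set 1 the het and hom values rest on the libraries labelled het 1 and hom 1, which go against their labels in Mysm1, so they may mix genotypes. Wild-type arrays all lay on 1 slide and hom arrays on another, at the same positions for the same number, so these are also within-slide values. The set 2 minus set 1 differences of 14502 probes correlated at 0.592 between wt and het, 0.590 between wt and hom and 0.670 between het and hom. For set 3 minus set 2 the values were 0.805, 0.644 and 0.715, and for set 3 minus set 1 they were 0.374, 0.256 and 0.274. Genes are not independent replicates, and slide position and number cannot be told apart for wt and hom. Of the 200 probes with the largest set 3 against set 1 difference in wt, 77.5% had the same sign in het and 68.0% in hom, beside 61.3% and 58.4% of all probes. For set 2 against set 1 these shares were 96.5% and 97.5%, beside 64.9% and 65.9%. The correlations were lowest for set 3 against set 1. The het and hom values of both comparisons with set 1 hold those 2 libraries, and those of set 3 against set 2 hold neither. The part of those libraries in the correlations was not tested.

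**Figure D2:**
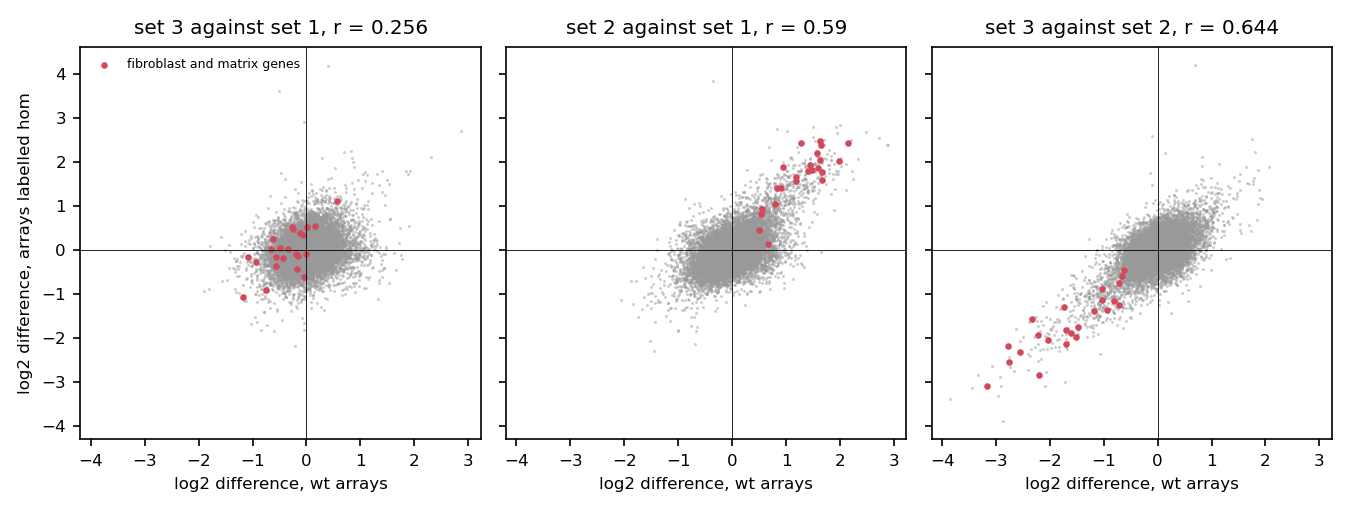
Difference in log2 intensity between sets for each probe, wt arrays on the x axis and arrays labelled hom on the y axis, for the 3 pairs of sets. The correlations are 0.256, 0.590 and 0.644, and the fibroblast and matrix genes (red) lie at the far end of both comparisons with set 2.

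The promoters of 4 of the genes described below are shown because these genes headed a comparison, because Krt8 and Krt18 lie next to each other and moved together, and because 2 of the windows hold a motif of interest. Each is the 250 bases before the gene start from RefSeq (GRCm38.p6), on the strand of the gene. In capitals is the CArG box, to which SRF binds, in Acta1, and the AP-1 motif TGANTCA in Mmp3. The CArG box of Acta1 starts 73 bases before the gene start and the AP-1 motif of Mmp3 46 bases before it.
Krt8, chr15:102004343-102004592, minus strand: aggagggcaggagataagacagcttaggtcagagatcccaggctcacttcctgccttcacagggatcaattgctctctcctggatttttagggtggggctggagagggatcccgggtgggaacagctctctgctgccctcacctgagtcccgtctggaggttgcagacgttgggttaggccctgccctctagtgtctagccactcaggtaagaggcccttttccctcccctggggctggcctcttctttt
Krt18, chr15:102027966-102028215, plus strand: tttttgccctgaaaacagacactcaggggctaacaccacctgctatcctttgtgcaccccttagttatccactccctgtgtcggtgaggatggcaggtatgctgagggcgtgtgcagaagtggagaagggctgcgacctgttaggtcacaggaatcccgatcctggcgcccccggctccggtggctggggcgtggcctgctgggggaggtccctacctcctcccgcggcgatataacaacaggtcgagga
Acta1, chr8:123894776-123895025, minus strand: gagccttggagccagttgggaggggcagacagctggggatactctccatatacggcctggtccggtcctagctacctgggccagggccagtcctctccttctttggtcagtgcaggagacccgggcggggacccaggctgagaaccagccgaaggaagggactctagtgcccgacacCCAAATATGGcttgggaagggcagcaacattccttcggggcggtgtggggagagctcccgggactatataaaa
Mmp3, chr9:7445572-7445821, plus strand: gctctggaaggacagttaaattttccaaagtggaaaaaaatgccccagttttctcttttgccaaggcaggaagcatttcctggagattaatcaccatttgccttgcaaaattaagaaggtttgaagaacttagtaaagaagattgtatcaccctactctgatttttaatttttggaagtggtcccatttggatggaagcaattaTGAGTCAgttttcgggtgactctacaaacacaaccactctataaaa
Searched on both strands, a CArG box was found in 1.47% and the AP-1 motif in 6.75% of 32851 promoter windows of this length. Neither motif was found in the windows of Krt8 and Krt18. A match is a description of the letters and says nothing about binding.

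Between set 1 and set 3 the genes that rose most were those of simple epithelial keratins. Krt8 had a log2 intensity of 6.51, 6.61 and 6.93 in set 1 and of 9.38, 10.75 and 9.63 in set 3. No array of one set reached the other, and the rise was 9.43-fold (log2 3.24 ± 0.28 SE, limma adjusted p = 0.000242, n = 3 arrays a set). Its filament partner Krt18 went from 5.72, 5.90 and 6.34 to 8.04, 9.59 and 8.45, a rise of 6.53-fold (2.71 ± 0.30, adjusted p = 0.000857). Krt19, another simple epithelial keratin, was not above background on any set 1 array and lay at 5.66, 6.75 and 6.27 in set 3, at least 2.47-fold higher (adjusted p = 0.000573). Bounds of this kind divide the mean of the brighter set by a floor for the dimmer one, which on each array is the lowest signal of any detected probe, or the signal of the gene itself where that is higher. Set 2 lay between the other sets for all 3 keratins, with Krt8 at 8.22, 10.38 and 9.32. In sets 2 and 3 the het array was the highest of the 3 for each of them.

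Some genes of the actin cytoskeleton rose as well. Acta1, the skeletal muscle alpha actin and a target of the transcription factor SRF, rose from 5.66, 5.93 and 6.11 to 7.58, 8.99 and 7.91 (4.79-fold, log2 2.26 ± 0.31, adjusted p = 0.00259). This call was lost in 1 of 27 alternatives. Anxa3, a phospholipid-binding annexin, rose from 7.96, 8.37 and 8.61 to 9.50, 10.92 and 10.12 (3.64-fold, 1.86 ± 0.17, adjusted p = 0.000273). Of 30 tested genes of the list of actin cytoskeleton and SRF targets, which also holds the 3 keratins, 13 rose and 0 fell, with a median of 0.42. Over all 8694 genes tested, 2.93% rose, 1.75% fell and the median was −0.02. By genotype the list median was 0.16 (wt), 0.65 (het) and 0.54 (hom). It was 0.64 without wt 1, and 0.13 when the libraries labelled het 1 and hom 1 were left out.

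Other genes that rose from set 1 to set 3 had varied roles. Gbp2, a guanylate-binding protein induced by interferon, went from 5.29, 5.92 and 6.31 to 7.13, 9.40 and 8.11 (5.18-fold, 2.37 ± 0.25, adjusted p = 0.000586). Of 16 tested interferon response genes 0 rose and 2 fell, beside 2.93% and 1.75% of all genes. Ddx58, the RNA sensor RIG-I, was 1 of the 2, at −0.54 ± 0.13. Slc40a1, which encodes the iron exporter ferroportin, rose 3.49-fold (1.80 ± 0.13, adjusted p = 7.33e-05) from 5.88, 7.13 and 6.88 to 7.76, 8.92 and 8.62. It was the only 1 of 12 tested iron genes to change, where 4.68% of all genes changed. Efna5, an ephrin ligand, rose 3.43-fold, the kinesin motor gene Kif1a 3.07-fold, the chemokine gene Cxcl16 3.05-fold and Igfbp3, which binds insulin-like growth factors, 2.76-fold, each with an adjusted p of 0.00227 or less. The second probe of Kif1a gave 0.77 on the log2 scale where the brighter gave 1.62, and that of Igfbp3 0.96 where the brighter gave 1.47. Mab21l4 was not above background in set 1 and at least 2.24-fold higher in set 3, where it lay at 5.65, 6.69 and 5.93.

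The claudin genes Cldn3, Cldn4, Cldn6 and Cldn7 were also higher in set 3. Cldn6 and Cldn3, claudins of the tight junction, rose by 1.10 ± 0.12 and 0.97 ± 0.16 on the log2 scale (adjusted p = 0.000649 and 0.00762). Cldn6 lay at 10.12, 10.38 and 10.47 in set 1, at 10.18, 10.37 and 10.02 in set 2 and at 11.32, 11.78 and 11.19 in set 3, so that set 3 alone stood apart. Of 19 tested genes of the list of the E-cadherin and mesenchymal switch, 7 rose and 0 fell in set 3 against set 1. Over all genes 2.93% rose and 1.75% fell. All 7 were on the epithelial side: the 4 claudins, the GTPase Rab25, and Krt8 and Krt18. The cadherin Cdh1 itself gave 0.01. The list median was 0.07, and 0.37 without the libraries labelled het 1 and hom 1.

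The trophectoderm list, which also holds the keratins, had 6 of 11 tested genes higher in set 3 than in set 1 and 0 lower, beside 2.93% and 1.75% of all genes, with a median of 0.77. Beside Krt8, Krt18 and Krt19 these were Krt7 at 1.01 ± 0.15, the receptor gene Fgfr2 at 0.71 and the transcription factor gene Tfap2c at 0.52 on the log2 scale. The defining trophectoderm factors Cdx2, Eomes and Elf5 were not detected on any ESC array. The summed level of 7 trophectoderm markers was 9.92 to 10.1 in set 1, 10.5 to 11.4 in set 2 and 11.1 to 11.8 in set 3. These markers include Krt8, Krt18 and Tfap2c, so the sum is not separate from the rises given above. The list was uneven between genotypes, with medians of 0.95 in wt, 0.25 in het and 1.40 in hom.

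**Figure D3:**
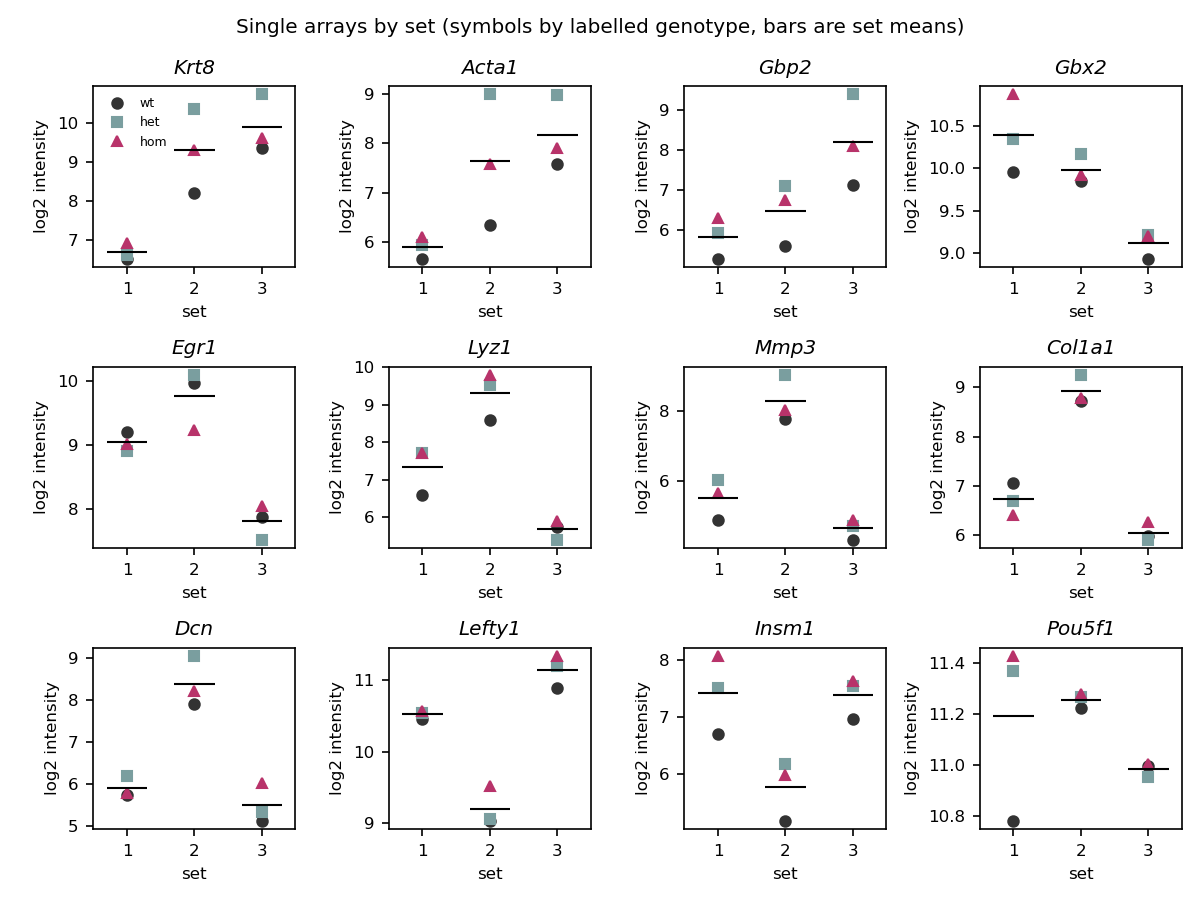
Log2 intensity of 12 genes on single ESC arrays by set, with a symbol for the labelled genotype and a bar for the set mean. Krt8, Acta1 and Gbp2 are highest in set 3, Gbx2 and Egr1 are lowest there, Lyz1, Mmp3, Col1a1 and Dcn are highest in set 2, and Lefty1 and Insm1 are lowest in set 2.

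Among genes lower in set 3 than in set 1 were a target of LIF signalling and an immediate early gene. Gbx2, a homeobox factor that acts downstream of Stat3 in mouse ESC, lay at 9.96, 10.35 and 10.87 in set 1, at 9.85, 10.17 and 9.91 in set 2 and at 8.93, 9.21 and 9.20 in set 3. The fall from set 1 to set 3 was 2.43-fold (−1.28 ± 0.14, adjusted p = 0.000803), with no overlap. It was the only 1 of 18 tested LIF and STAT3 outputs to change in this comparison, where 4.68% of all genes changed. The list median was −0.06, or −0.03 with members not above background at their bound. Without the libraries labelled het 1 and hom 1 that median was 0.12. Egr1, an immediate early transcription factor induced by ERK, fell from 9.19, 8.91 and 9.01 to 7.88, 7.52 and 8.05 (2.33-fold, −1.22 ± 0.19, adjusted p = 0.00500). The ERK-induced factor Etv4 fell by 0.75 ± 0.13, while Dusp4, a phosphatase that acts on ERK, and Phlda1 rose by 0.62 and 0.74. Of 17 tested FGF and ERK outputs 2 rose and 2 fell, beside 2.93% and 1.75% of all genes. Their median was −0.01, or 0.19 without those 2 libraries. The outputs of these pathways did not move one way between set 1 and set 3.

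The largest fall from set 1 to set 3 was that of the lysozyme gene Lyz1, from 6.58, 7.71 and 7.71 to 5.74, 5.39 and 5.90 (3.15-fold, −1.66 ± 0.22, adjusted p = 0.00226). Lyz1 has a near-identical paralog, Lyz2, and its probe was not checked against it. Col6a1, a collagen VI chain, fell from 6.74, 7.11 and 6.59 to 5.56, 5.67 and 5.53 (2.35-fold, −1.23 ± 0.17, adjusted p = 0.00240). These are transcripts that wild-type MEF held at a log2 level of 11.3 and 11.1 on the scale of all 20 arrays. Among the 221 falling probes, 27 (12.2%) were at least 1 log2 unit higher in wild-type MEF than in set 2. Over all probes it was 10.85%, and among the 355 that rose 121 (34.1%). By the same measure 115 (52.0%) of the 221 and 58 (16.3%) of the 355 were lower in MEF, beside 14.1% of all probes. Myo1f, an unconventional myosin, fell 2.79-fold, Mapt, the microtubule protein tau, 2.43-fold, the histidine ammonia-lyase gene Hal 2.26-fold and the integrin gene Itgb7 2.21-fold. The second probe gave −0.44 for Mapt and −0.39 for Hal on the log2 scale. Fam25c fell 2.56-fold and 2410137M14Rik 2.61-fold. Ddx6, an RNA helicase of processing bodies, fell 2.35-fold by its brightest probe, while its 5 probes ran from −1.24 to 0.09 on the log2 scale. Elobl fell 2.19-fold (adjusted p = 0.0205), and this call was lost in 10 of 26 alternatives.

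Of 13 tested germline genes that DNA methylation keeps off in somatic cells, 5 fell in set 3 against set 1 and 0 rose, beside 1.75% and 2.93% of all genes. The other 8 were not called, and the difference of each was negative. The median was −0.49, with −0.32, −0.78 and −0.56 in wt, het and hom, and −0.29 with no background correction. Piwil2, a Piwi protein of the germline, lay at 7.63, 7.50 and 7.21 in set 1 and at 6.71, 6.72 and 6.64 in set 3 (−0.75 ± 0.12, adjusted p = 0.00500). Tex19.1, which acts in transposon control in mouse germ cells, lay at 9.62, 10.08 and 10.21 in set 1, at 10.23, 10.44 and 10.33 in set 2 and at 9.31, 9.07 and 9.38 in set 3 (−0.72 ± 0.13 from set 1 to set 3, adjusted p = 0.00979). Tex11, a meiotic gene, fell by 0.83 ± 0.17. Mageb4 was not above background on any set 3 array and at least 1.44-fold lower. The fifth was Tuba3a, a testis alpha tubulin, at −0.65. Among 12 tested genes of the methylation machinery, Dnmt3l, the cofactor of the de novo methyltransferases, and Trim28 fell by 0.53 ± 0.08 and 0.39 ± 0.08, and 0 rose. Dnmt3l lay at 13.08, 13.22 and 13.20 in set 1, at 12.47, 12.85 and 12.60 in set 2 and at 12.51, 12.62 and 12.76 in set 3.

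Few pluripotency genes passed in the comparisons with set 1. Pou5f1 lay at 10.78, 11.37 and 11.43 in set 1, at 11.22, 11.27 and 11.28 in set 2 and at 10.997, 10.954 and 11.002 in set 3. Set 2 lay above set 3 on every array, and set 1 overlapped both. The difference of set 3 from set 2 was −0.27 ± 0.12 (limma adjusted p = 0.148). Neither Pou5f1 (−0.21 ± 0.12, adjusted p = 0.362) nor Nanog (−0.15 ± 0.13, adjusted p = 0.588) passed between set 3 and set 1. Against set 2, Sox2 was higher in set 3 by 0.42 ± 0.12 (adjusted p = 0.0319) and Zfp42 lower by a log2 difference of −0.52 ± 0.17 (adjusted p = 0.0499). These calls were lost in 11 and 15 of 26 alternatives. Of 27 naive pluripotency genes 1 fell between set 1 and set 3, the junction gene Jam2 at −0.78 ± 0.20, beside 1.75% of all genes. Between set 1 and set 2, 2 rose and 1 fell, beside 8.90% and 9.01% of all genes. In set 3 against set 2, 2 were higher and 5 lower, beside 9.89% and 9.28% of all genes. The list median was −0.22 in set 3 against set 1, with −0.01 in wt, −0.31 in het and −0.23 in hom, and −0.04 without the libraries labelled het 1 and hom 1.

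Of 27 tested targets of p53, 5 rose from set 1 to set 3 and 0 fell, beside 2.93% and 1.75% of all genes, and 22 were not called. The median was 0.27, or 0.29, 0.21 and 0.37 in wt, het and hom. Trp53inp1 rose by 0.73 ± 0.11 (adjusted p = 0.00378), the BH3-only gene Pmaip1 by 0.65, the polo-like kinase gene Plk2 by 0.67 and the cyclin gene Ccng1 by 0.50. Of 7 tested early neural genes 3 rose and 1 fell, among them the intermediate filament gene Nes, up by 0.94 ± 0.16, and the adhesion gene Ncam1, down by 0.81 ± 0.19. The imprinted gene Nnat, which is on that list and on the imprinted list, rose by 0.94 ± 0.17, from 4.58, 5.97 and 5.58 to 5.47, 6.62 and 6.85, so that sets overlapped while each genotype rose. Cytosolic ribosomal proteins (50 tested, median −0.04), the respiratory chain (47, median −0.07), S phase genes (39, median −0.10), and G2 and mitosis genes (27, median −0.03) had 0 calls in limma between set 3 and set 1. At an unadjusted p under 0.05, limma counted 1 ribosomal protein gene, 5 respiratory chain genes, 7 S phase genes and 3 G2 and mitosis genes. Over all 14502 probes tested, 2865 reached that threshold in this comparison.

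Fibroblast and matrix transcripts were higher in set 2 than in the other sets. All 23 tested genes of the fibroblast and matrix list rose in set 2 against set 1, beside 8.90% of all genes that rose and 9.01% that fell, and all 23 fell in set 3 against set 2, beside 9.28% of all genes. The list holds 32 genes, of which 23 were tested. A gene detected on the 3 set 2 arrays alone was tested, so members could enter through set 2. The count of 23 is thus not independent of the rise, and the shares over all genes passed the same filter. The median was 1.88 in set 2 against set 1, with 1.42 in wt, 2.26 in het and 1.79 in hom, and −1.82 in set 3 against set 2. Between set 3 and set 1 the same list had 1 rise and 3 falls, beside 2.93% and 1.75% of all genes. Its median there was −0.15, or −0.10 with members not above background at their bound. Without the libraries labelled het 1 and hom 1 it was −0.43. In bulk samples a change in the number of cells of a type and a change in RNA per cell cannot be told apart. The set 2 arrays stood apart in every genotype, and het 2 was the highest of them for 22 of 23 genes of this list, all but Tagln, with all 20 arrays normalized together.

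The genes at the head of this difference encode secreted matrix proteins and enzymes. Mmp3, the matrix metalloproteinase stromelysin 1, lay at 4.89, 6.04 and 5.66 in set 1, at 7.76, 9.02 and 8.04 in set 2 and at 4.32, 4.72 and 4.90 in set 3. It was 6.70-fold higher in set 2 than in set 1 (log2 2.75 ± 0.19, adjusted p = 5.76e-06), and at least 10.2-fold lower in set 3 than in set 2, since no set 3 array had it above background. Mgp, the matrix Gla protein, lay at 7.11, 7.95 and 7.50, then 9.83, 10.72 and 10.05, then 6.87, 7.27 and 6.74, and was 6.42-fold higher in set 2 than in set 1 (2.68 ± 0.12, adjusted p = 4.20e-07). Dcn, the collagen-binding proteoglycan decorin, lay at 5.74, 6.18 and 5.77, then 7.90, 9.03 and 8.20, then 5.12, 5.33 and 6.03 (5.58-fold, 2.48 ± 0.23). Set 2 was the highest in all 3 genotypes for each of these genes.

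Several further genes had the same form. Tnc, the matrix glycoprotein tenascin C, was 5.64-fold higher in set 2 than in set 1, Ifi27 5.35-fold, Nrp1, a receptor for semaphorins and VEGF, 5.31-fold and the thrombospondin gene Thbs2 4.81-fold. The 4 probes of Tnc ran from 0.60 to 2.60 on the log2 scale. Against set 2, set 3 was 10.75-fold lower for Col6a1 and 7.37-fold lower for Col1a1, the main chain of collagen I, which lay at 8.72, 9.25 and 8.80 in set 2 and at 5.96, 5.89 and 6.26 in set 3. Lyz1 was 12.35-fold lower in set 3, after 8.60, 9.52 and 9.79 in set 2 (−3.63 ± 0.22, adjusted p = 7.72e-07). The lysozyme Lyz2, a macrophage marker with a near-identical paralog, lay at 4.58, 5.77 and 6.15 in set 1 and at 6.51, 7.33 and 7.93 in set 2 (1.75 ± 0.23, adjusted p = 0.000284). The macrophage markers Adgre1 and Cd14 were not detected on any ESC array.

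Set against the wild-type MEF arrays, the fibroblast signal in set 2 was a modest share. With all 20 arrays normalized together, the median over the 23 fibroblast and matrix genes was 13.5%, 25.1% and 16.5% of the wild-type MEF level on the set 2 arrays. It was 4.74%, 4.70% and 4.86% on the set 1 arrays and 4.07%, 4.35% and 3.40% on the set 3 arrays. Single genes on set 2 arrays ran from 1.77% for Lum, a matrix proteoglycan, in wt 2 to 62.6% for Ccn2, a matricellular growth factor, in het 2. Col1a1 stood at 7.85%, 11.4% and 8.29% of MEF in set 2 and at 0.963%, 0.902% and 1.25% in set 3. The offset was subtracted before these shares were taken. Low shares rest on signals near background and are uncertain. The summed level of 10 fibroblast markers was 9.24 to 9.47 in set 1, 10.9 to 11.7 in set 2 and 8.70 to 9.07 in set 3, and of these Col3a1, Postn and Fbln5 were not detected on any ESC array.

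**Figure D4:**
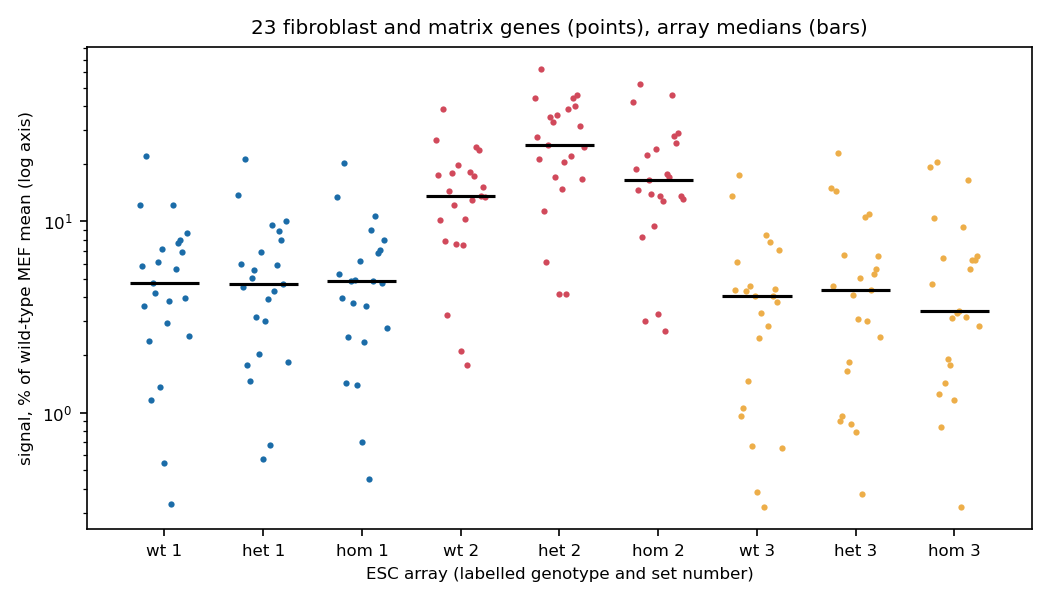
Signal of 23 fibroblast and matrix genes on each ESC array as a percentage of their wild-type MEF mean (log axis), with a bar at the median of each array. The medians are 13.5% to 25.1% on set 2 arrays and 3.40% to 4.86% on the arrays of the other sets.

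Most of the probes that rose in set 2 were fibroblast-rich, but not all. Of the 1132 probes higher in set 2 than in set 1, 848 (74.9%) were at least 1 log2 unit higher in wild-type MEF than in set 3, a set that took no part in the comparison, beside 12.6% of all probes. The other 284 were not. Of the 1179 probes lower in set 3 than in set 2, 708 (60.05%) were that much higher in MEF than in set 1, beside 14.0% of all probes. Probes detected on the 3 set 2 arrays alone were tested here too. Both shares are thus not independent of the filter, which the shares over all probes also passed. For 161 of the 1132 the set 2 mean was above that of wild-type MEF. Mmp3 was 1 of them, at 8.39 in set 2 and 6.48 ± 1.71 (SD, n = 4) in MEF, and so was Krt8, at 9.38 against 7.34 ± 1.49. With probes at least 1 log2 unit higher in wild-type MEF than in ESC left out, a choice made after seeing the data, 1375 probes passed between set 2 and set 1, 298 higher and 1077 lower.

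The actin and SRF list rose almost whole in set 2. Of 30 tested genes 28 rose against set 1 and 0 fell, beside 8.90% and 9.01% of all genes. The median was 1.16, or 0.69, 1.42 and 1.28 in wt, het and hom. Without the libraries labelled het 1 and hom 1 the median was 0.74. Krt8 rose 6.15-fold and Anxa3 3.86-fold. Against set 2, 2 of the 30 were higher in set 3 and 16 lower, beside 9.89% and 9.28% of all genes. The 2 were Krt18 and Krt19, and genes such as the smooth muscle actin Acta2 (−1.25) and the intermediate filament gene Vim (−2.24) were among the 16. Acta1 gave 0.52 ± 0.31 (adjusted p = 0.286) and Krt8 0.62 ± 0.28 (adjusted p = 0.161) between set 3 and set 2. The fibroblast markers given above were highest in set 2, and their part in the difference was not tested.

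Of 9 tested BMP and ID outputs 5 rose in set 2 against set 1 and 1 fell, beside 8.90% and 9.01% of all genes. The median was 1.07, or 0.60 with no background correction. The fibroblast markers rose in the same comparison, 23 of 23, and their part here was not tested. Bmp4 lay at 7.15, 7.65 and 7.48 in set 1, at 8.67, 8.57 and 8.35 in set 2 and at 7.50, 6.97 and 6.81 in set 3, and rose by 1.10 ± 0.17 in set 2 (adjusted p = 0.00106). The BMP target genes Id1 and Id3, which block bHLH factors, rose by 1.07 ± 0.17 and 1.25 ± 0.20, and Gata2 by 1.39 ± 0.22. Id2 fell by 0.71. Of 11 immediate early genes 7 rose and 0 fell, beside the same 8.90% and 9.01% of all genes. Ccn1, a matricellular gene that is also on the fibroblast and actin lists, rose by 1.56 ± 0.16, and Egr1, which stood at 11.5 in wild-type MEF, by 0.71 ± 0.19. Wnt3a, a ligand of the primitive streak, lay at 5.13, 5.09 and 4.94 in set 1 and at 6.63, 6.33 and 6.02 in set 2 (1.28 ± 0.18, adjusted p = 0.000365). Of 20 listed streak and mesoderm genes 7 were tested, and members could enter through set 2 alone. Of these 4 rose and 0 fell, beside 8.90% and 9.01% of all genes. The streak markers Mixl1 and Eomes were not detected on any ESC array. The summed level of the streak markers was 6.79 to 7.09 in set 1, 7.10 to 7.19 in set 2 and 6.85 to 7.09 in set 3.

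In the primitive endoderm list 9 of 16 tested genes rose in set 2 against set 1 and 0 fell. Over all genes 8.90% rose and 9.01% fell. The list holds 26 genes, and members could enter through set 2 alone here too. Its median was 0.76, or 0.55 with members not above background at their bound, and 0.37 with no background correction. The genes that rose include Sparc (1.04 ± 0.13) and Nid1 (1.03 ± 0.15), basement membrane genes that fibroblasts also make, and the collagen IV genes Col4a1 and Col4a2 (1.75 each). The lineage factors Gata4, Sox17 and Foxa2 were not detected on any ESC array, Gata6 gave 0.12, and the summed level of 8 primitive endoderm markers overlapped between sets, at 8.82 to 9.47. In the p53 list 10 of 27 genes rose in set 2 and 0 fell, with the cell cycle inhibitor gene Cdkn1a at 8.81, 9.26 and 8.82 in set 1 and at 10.16, 11 and 10.43 in set 2. The imprinted growth factor gene Igf2 rose 4.61-fold, from 9.16, 9.73 and 9.68 to 11.38, 12.34 and 11.46. Fibroblast marker levels moved with all of these, and their part was not tested.

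Genes lower in set 2 than in sets 1 and 3 included several of the primed epiblast. Lefty1, a Nodal antagonist, lay at 10.46, 10.54 and 10.57 in set 1, at 9.03, 9.05 and 9.52 in set 2 and at 10.90, 11.20 and 11.34 in set 3. It was 2.50-fold lower in set 2 than in set 1 (−1.32 ± 0.10, adjusted p = 7.06e-06) and 3.85-fold higher in set 3 than in set 2 (1.94 ± 0.10, adjusted p = 3.88e-07), with no overlap among the 3 sets. Of 15 tested primed epiblast genes 7 fell in set 2 against set 1 and 0 rose, beside 9.01% and 8.90% of all genes. The median was −0.43, with −0.32, −0.35 and −0.54 in wt, het and hom, and −0.22 with no background correction. Otx2, Pou3f1 and Fgf15 fell by 0.96, 0.94 and 0.93, and Dnmt3b, a de novo DNA methyltransferase, by 0.48. Car4, a carbonic anhydrase, was 3.50-fold higher in set 3 than in set 2, at 6.53, 8.12 and 7.66 against 4.83, 5.90 and 6.15. Lefty2 and Etv4 departed from the pattern, as Lefty2 gave 0.13 and Etv4 0.21 between set 2 and set 1.

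Genes outside the lists shared this form. Insm1, a zinc finger factor of neuroendocrine cells, lay at 6.71, 7.51 and 8.06 in set 1, at 5.19, 6.18 and 5.99 in set 2 and at 6.97, 7.55 and 7.62 in set 3 (3.12-fold lower in set 2 than in set 1, −1.64 ± 0.16, adjusted p = 2.29e-05). Cplx1, a complexin of synaptic vesicle fusion, was 2.86-fold lower, the fatty acid transport and activation gene Slc27a2 2.83-fold, Hes6, a bHLH factor, 2.77-fold and the alpha actinin gene Actn3 2.76-fold. The 3 probes of Actn3 ran from −1.46 to −0.66 on the log2 scale. Acot1, an acyl-CoA thioesterase with close paralogs, was 3.10-fold lower. Pdzk1, a scaffold protein, was not above background on any set 2 array and at least 1.91-fold lower than in set 1. Jak1, the kinase of the LIF receptor, lay at 7.21, 6.80 and 7.01 in set 1, at 5.71, 5.75 and 5.86 in set 2 and at 7.37, 7.57 and 7.38 in set 3, and was 3.18-fold higher in set 3 than in set 2 (1.67 ± 0.14, adjusted p = 7.26e-06). In wild-type MEF it stood at 5.64. Of 18 tested LIF and STAT3 outputs 3 rose and 1 fell in set 2 against set 1, with a median of 0.12. Over all genes 8.90% rose and 9.01% fell. In set 3 against set 2, 0 of the 18 were higher and 5 lower, beside 9.89% and 9.28% of all genes. Lrp2, the endocytic receptor megalin, was 4.10-fold higher in set 3 than in set 2 and Rasd2, a small GTPase, 3.28-fold.

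Of 38 tested genes of the amino acid and ATF4 response 18 fell in set 2 against set 1 and 1 rose, beside 9.01% and 8.90% of all genes, with a median of −0.34, and 13 were higher in set 3 than in set 2 and 1 lower. The gene that rose was Ddit3 at 0.52 ± 0.14, a stress factor that was also higher in set 3 than in set 1, by 0.73 ± 0.14. The glycine transporter Slc6a9 fell by 0.98 and the mTOR inhibitor gene Ddit4 by 0.50 ± 0.10 in set 2. The list of G2 and mitosis had 11 falls among 27 genes and a median of −0.31, and the kinesin gene Kif11 fell by 0.53 ± 0.11. The S phase list had 12 falls among 39 genes and a median of −0.27, and the mismatch repair gene Msh6 fell by 0.40 ± 0.09. Of 12 genes of the methylation machinery 6 fell and 0 rose. Of 29 tested genes of glycolysis and hypoxia 1 rose and 2 fell in set 2 against set 1. Of 19 tested cholesterol synthesis genes 4 fell in set 2 against set 1 and 0 rose. They were higher in set 3 than in set 2 in 12 of 19 cases and lower in 0, with a median of 0.46, and beside 9.89% of all genes that were higher. Fdps, which makes farnesyl diphosphate, lay at 10.21, 10.16 and 10.35 in set 1, at 10.01, 9.74 and 9.73 in set 2 and at 10.71, 10.79 and 10.34 in set 3 (0.79 ± 0.12 between set 3 and set 2, adjusted p = 0.000686).

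Of the 1099 probes lower in set 2 than in set 1, 548 (49.9%) were at least 1 log2 unit lower in wild-type MEF than in set 3, beside 16.3% of all probes. The part of fibroblast RNA in the falls was not tested. Ribosomal protein genes (50 tested) and respiratory chain genes (47 tested) had 0 calls in limma between set 2 and set 1, with medians of 0.04 and 0.03 and with 1 and 7 genes at an unadjusted p under 0.05. Of all 14502 probes tested, 4245 had an unadjusted p under 0.05 in this comparison.

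**Figure D5:**
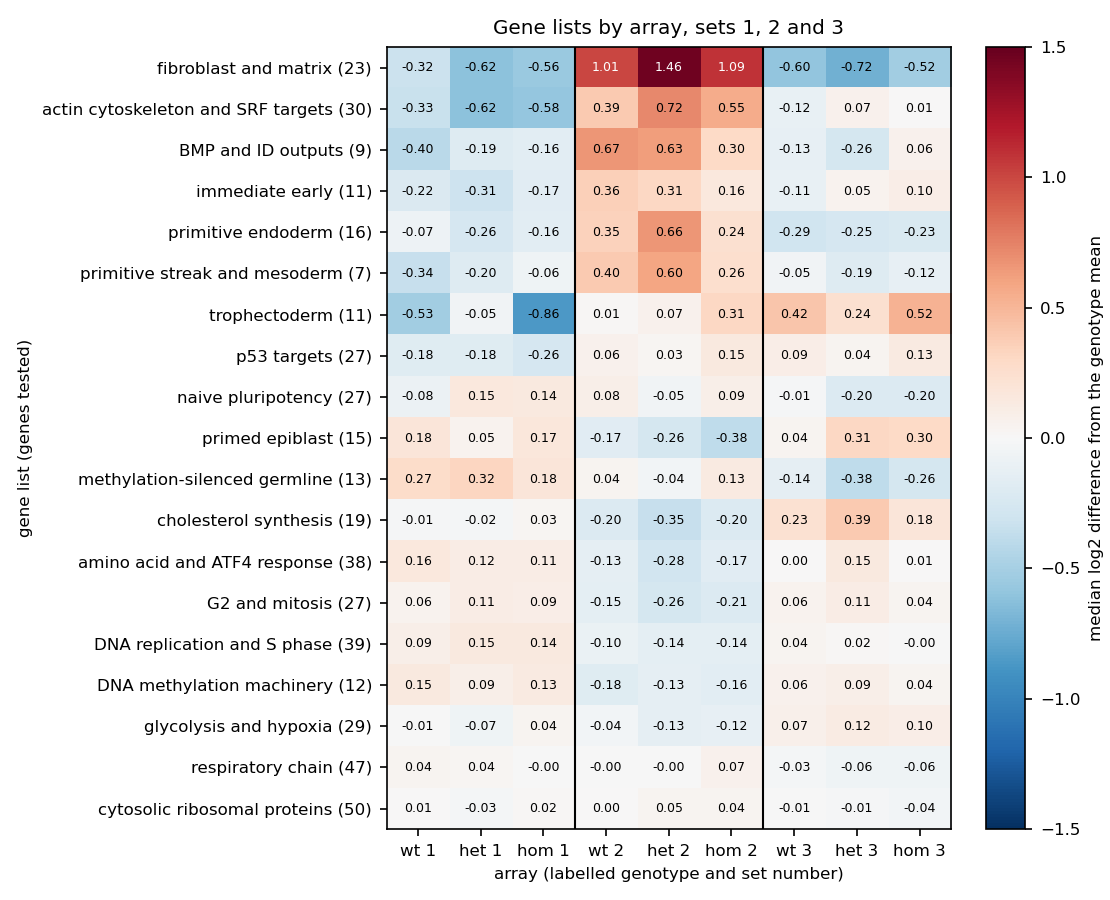
Median over the tested genes of each list of the log2 difference from the mean of the array's labelled genotype, for the 9 ESC arrays in order of set. The fibroblast and matrix list stands at 1.01 to 1.46 on set 2 arrays and at −0.32 to −0.72 on the others, and the trophectoderm list at 0.24 to 0.52 on set 3 arrays, with hom 2 at 0.31.

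No chromosome moved far with the set number in all 3 genotypes: in every comparison at least 1 genotype lay within 0.0803 of the median of all genes on the log2 scale. Over genes whose mean log2 intensity reached 7, the median of chromosome X between set 3 and set 1 was 0.02 (wt), −0.21 (het) and 0.35 (hom), against −0.03 over all genes. Chromosome 8 was at −0.18, −0.08 and −0.02. The X values of set 3 against set 1 went opposite ways in het and hom, the 2 genotypes whose set 1 library goes against its label.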

How the data were processed

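Samples were 20 mouse cell RNAs on bead arrays, 9 of them from ESC. Per the file headers, the deposited table without normalization lists, by probe and array, the average bead intensity on a linear scale, its detection p-value and how many beads were read. A series matrix of intensity that the authors had normalized was also deposited and served as an alternative. BeadStudio and limma are named in the submitters' processing notes, and their versions are not given in the sources used here. Analysis used R 4.3.3 and limma 3.58.1. The normexp background was estimated from the detection p-values, with an offset of 16, and the 9 ESC arrays were then quantile normalized. A probe was tested where its detection p was under 0.01 on 3 or more ESC arrays (14502 probes, 8694 genes). The limma model held set and labelled genotype (4 residual degrees of freedom), with a trend in eBayes and Benjamini-Hochberg adjustment over the tested probes. The platform annotation gave 1 gene symbol for 34885 of 45281 probes, several for 18 and none for 10378. A gene is read by its brightest probe, and probes of 1 gene can disagree.

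The replicate number in the title defined the sets, and the members and the 39 gene lists were chosen with earlier results of these data known. Lists are described by counts and medians with no test. Named genes were the 12 largest rises and 12 largest falls between set 3 and set 1, and 8 and 8 in the other comparisons, among those past the threshold and alike in sign in all 3 genotypes, with up to 4 members of a list by smallest p between set 3 and set 1, Mysm1, Pou5f1, Nanog, Sox2 and Zfp42. Other list members were named after their values were seen, among them Otx2, Pou3f1, Fgf15, Dnmt3b, Col4a1, Col4a2, Cdkn1a, Igf2, Lyz2, Vim, Acta2, Slc6a9, Id2, Tuba3a, Cdh1, Rab25, Cldn4, Cldn7, Fgfr2, Tfap2c, Gata6, Lum and Ccn2. Alternatives covered background correction, normalization, filters, slide and slide position, the genotype block, array weights, thresholds and left-out arrays. On simulated data for set 3 against set 1, 52, 98, 100 and 100% of probes changed by 0.5, 1, 2 and 3 log2 units were recovered, with 13 false calls among 188, a share above the 0.05 set. Simulated errors were independent between probes. Figures were drawn with matplotlib 3.10.9.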

Additional observations from a re-analysis of the deposited data

Results flagged for a closer look

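Some values moved opposite ways between sets in different genotypes. Each rests on 1 array per genotype and set, and none of these differences was tested. For Mysm1, set 3 against set 1 gave 2.22 in het and −1.66 in hom, which differ by 3.88 on the log2 scale, and set 2 against set 1 gave 2.23 and −1.05, which differ by 3.28. The median of chromosome X was 0.35 in hom and −0.21 in het for set 3 against set 1, 0.556 apart (0.5557), and 0.29 and −0.27 for set 2 against set 1, also 0.556 apart (0.5563). All 4 of these include the libraries labelled het 1 and hom 1. Pou5f1 rose by 0.22 in wt and fell by 0.42 in hom between set 1 and set 3, a difference of 0.64. Nanog gave 0.51 in hom and −0.30 in het for set 2 against set 1, 0.804 apart. The median of 7 tested primitive streak and mesoderm genes was 0.36 in wt and −0.24 in hom for set 3 against set 1, 0.603 apart. The Nanog values also include both of those libraries. Those of Pou5f1 and of the streak and mesoderm list include the library labelled hom 1.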

How the results depend on the processing

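The share of variance by set stayed between 49.0% and 57.05% over other background corrections, normalizations and filters, and was 56.5% to 69.3% with 1 genotype left out. The count of probes that differed between set 3 and set 1, 576 as reported, became 309 with slide as a block, 130 with wt and hom arrays alone, 371 within the slide of the hom arrays, 125 with no genotype block, 374 without a trend in eBayes, 134 at an adjusted p of 0.01, 74 with a log2 difference of at least 1, and 155 with set 1 and set 3 arrays alone, an alternative chosen after seeing the data. Leaving out 1 array gave 142 (without het 3) to 532 (without wt 1). Between set 2 and set 1, 2231 became 1109 with wt and hom arrays alone, 1420 within the slide of the hom arrays, 1218 with no genotype block, 1007 at 0.01, 435 with a log2 difference of at least 1, 1253 when the libraries labelled het 1 and hom 1 were left out, 1375 without probes higher in wild-type MEF (chosen after seeing the data), and 887 (without het 2) to 2443 (without hom 3) with 1 array left out. Between set 3 and set 2, 2433 became 877 with wt and hom arrays alone, 1451 with no genotype block, 3796 with array weights, 3248 when the libraries labelled het 1 and hom 1 were left out, 1163 at 0.01 and 474 with a log2 difference of at least 1, and 997 (without het 2) to 2672 (without het 1) with 1 array left out. For any difference, 2936 became 1157, 1602 and 1340 with wt and hom arrays alone, with no block and at 0.01, 3281 when those 2 libraries were left out, and 1309 (without het 2) to 2903 (without het 1) with 1 array left out. A stricter threshold lowers a count by construction, and the cause of the other moves was not tested. Mysm1 reversed within the slide of the hom arrays, from 0.17 to −1.51 between set 3 and set 1 and from 0.33 to −1.20 between set 2 and set 1. The 58 called results, each of 1 gene in 1 comparison, gave 1522 values. Of these 1478 kept direction and call and 44 lost the call. Some genes, such as Krt8, gave a result in more than 1 comparison. Of 2701 list medians, 258 moved by more than the spread between arrays. No paired analysis was possible because the replicate number is itself what is compared, and its pairing across genotypes is the set. The slide of the wt arrays left no residual degrees of freedom and was not run. Dim probes limit the size of differences, as signals near background are compressed.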

Other observations

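Chromatin genes held a few differences between sets. Pcgf5, a subunit of Polycomb repressive complex 1, lay at 7.60, 7.75 and 7.81 in set 1 (wt, het and hom), at 8.03, 7.99 and 7.91 in set 2 and at 8.42, 8.69 and 8.50 in set 3, with no overlap among the 3 sets. It rose by 0.82 ± 0.11 (SE) between set 1 and set 3 (limma adjusted p = 0.00257). It was the only 1 of 24 tested genes of the list of Polycomb and H2A deubiquitinases to change, where 4.68% of all genes changed. The H3K9 methyltransferase gene Ehmt2 fell by 0.45 ± 0.11 (adjusted p = 0.0482), 1 of 2 falls among 14 tested genes of transposon and heterochromatin control, where 1.75% of all genes fell. The replication-dependent histone gene H2bc4 lay at 6.42, 6.40 and 6.62 in set 1, at 7.30, 8.14 and 8.22 in set 2 and at 6.09, 5.97 and 6.36 in set 3, and rose by 1.41 ± 0.17 in set 2 (adjusted p = 0.000142). In set 2 against set 1 the list of histones had 3 rises and 5 falls among 24 tested genes, beside 8.90% and 9.01% of all genes.

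Single genes of stress, hypoxia and WNT lists also differed. The co-chaperone gene Bag3 rose by 0.79 ± 0.13 in set 3 and by 0.88 ± 0.13 in set 2 against set 1, while the chaperone genes Hsph1 and Stip1 fell by 0.52 ± 0.10 and 0.39 ± 0.08 in set 3. Egln3, a prolyl hydroxylase induced by hypoxia, fell by 0.75 ± 0.16 in set 3, and the carbonic anhydrase gene Car12 rose by 0.78 ± 0.16. The WNT target Sp5 lay at 4.90, 5.46 and 5.60 in set 1 and at 5.17, 6.83 and 6.86 in set 3, a rise of 0.96 ± 0.20 (adjusted p = 0.0217) that was smaller in wt. It was the 1 of 9 tested WNT outputs that rose, beside 2.93% of all genes. In set 2, 6 of 27 tested lysosome genes rose against set 1 and 1 fell, beside 8.90% and 9.01% of all genes. Lamp2 rose by 0.75 ± 0.12, and the part of fibroblast RNA in these changes was not tested.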
